A study of Mus musculus with 20 samples.

Results

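Prostaglandins are lipid messengers made from membrane arachidonic acid, and 10 genes of this system were followed by name in cultured mouse renal myofibroblasts: the cyclooxygenases *Ptgs1* and *Ptgs2*, the terminal synthases *Ptges*, *Ptgis* and *Ptgds*, the prostaglandin E2 receptors *Ptger1*, *Ptger2*, *Ptger3* and *Ptger4*, and the prostaglandin F2α receptor *Ptgfr*. They are 10 of the 51826 genes in the count table. All 10 passed the filter on low counts that left 20407 genes for testing. The cells grew out of minced kidneys of C57BL/6J mice and were sequenced at passage 2. WT and WWP2-/- mice (labelled KO) were littermates from heterozygous matings, and WWP2-/- animals lack the full-length and N-terminal isoforms of this ubiquitin ligase. Cells of each genotype were left untreated or received TGFβ1, a growth factor that drives fibroblasts toward the contractile, matrix-producing myofibroblast state. TGFβ1 was given for 72 hours, which the sample labels do not state. Poly-A RNA was sequenced from 5 libraries in each of the 4 groups, and the question behind the design is how loss of WWP2 alters these cells with and without TGFβ1.

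Cyclooxygenase converts arachidonic acid to prostaglandin H2, which terminal synthases turn into prostaglandin E2, prostacyclin, prostaglandin D2 or other products that act on G protein-coupled receptors of the same or neighboring cells. In the kidney, prostaglandin E2 and prostacyclin take part in the control of blood flow, renin release and the handling of salt and water, and interstitial fibroblasts are one of their sources. In fibroblasts of several organs, prostaglandin E2 acting through cyclic AMP restrains collagen synthesis, whereas cyclooxygenase-2 is induced by inflammatory signals.

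Levels are given as counts per 1000000 counts of the library (CPM). Where genes are compared with each other, CPM was further divided by the summed exon length in kilobases (FPKM). Totals were between 47520759 and 73063697 counts per library, so a count of 0 allows up to 3 counts, or at most 0.0631 CPM, a limit that covers counting error only. *Wwp2* was at 51.0, 55.2, 55.7, 55.9 and 48.2 CPM in WT replicates 1 to 5 and at 48.4, 46.7, 61.6, 47.7 and 46.7 CPM with TGFβ1. In WWP2-/- replicates 1 to 5 it was at 19.5, 23.97, 23.2, 21.0 and 19.9 CPM, and at 20.5, 21.1, 15.5, 18.8 and 21.5 CPM with TGFβ1. No WWP2-/- library reached the WT range. Libraries stood apart in ways that bear on every result here. WWP2-/- replicate 3 untreated and WWP2-/- replicate 1 with TGFβ1 had 39.7 and 49.0 CPM of *Acta2*, the smooth muscle actin that defines myofibroblasts, against 945 to 3337 CPM in the other libraries. Their endothelial, tubular epithelial and pericyte marker sums were the lowest of all libraries, and they are called the *Acta2*-low libraries. Summed fibroblast markers were at 6513 to 37048 CPM in every library, the 2 included. Summed markers of macrophages ran from 74.5 to 4458 CPM and of tubular epithelium from 15.2 to 799 CPM, so the cultures held other cells to different degrees, although the distal tubule and collecting duct markers *Umod* and *Aqp2* had no count in 14 and 10 libraries. In addition, *Xist*, made from the inactivated X in females, exceeded 1 CPM in 8 WT libraries and 3 WWP2-/- libraries of 10 each, and both *Acta2*-low libraries were among them; the other libraries are called libraries without *Xist*. Of the 11 libraries with *Xist*, 5 also held Y-linked transcripts (4 WT and 1 WWP2-/-), so a split by *Xist* does not separate the sexes cleanly. The labels do not say which animal or culture each replicate came from, so *P* values measure the spread between these samples only. In bulk RNA, fewer cells of a type and less RNA per cell cannot be told apart.

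Per exon length, the 10 genes covered a wide range in untreated WT cells. *Ptgis*, at 26.2 ± 19.1 FPKM (SD, n = 5), *Ptgs1*, at 14.1 ± 2.24 FPKM, and *Ptgs2*, at 11.3 ± 3.45 FPKM, led, and their SDs overlapped. *Ptges*, at 3.96 ± 2.21 FPKM, *Ptger4*, at 3.31 ± 1.32 FPKM, *Ptgds*, at 2.12 ± 1.34 FPKM, and *Ptger3*, at 1.74 ± 1.08 FPKM, formed a middle tier whose neighbors did not differ beyond their spread. *Ptgfr*, *Ptger1* and *Ptger2* were near the lower end, at 0.293 ± 0.167, 0.135 ± 0.0288 and 0.130 ± 0.118 FPKM. In WWP2-/- cells without TGFβ1, *Ptgs2* had the highest mean, at 118 ± 146 FPKM, with an SD larger than the mean. *Ptgis* was at 6.53 ± 5.65 FPKM in the same libraries.

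**Figure D1:**
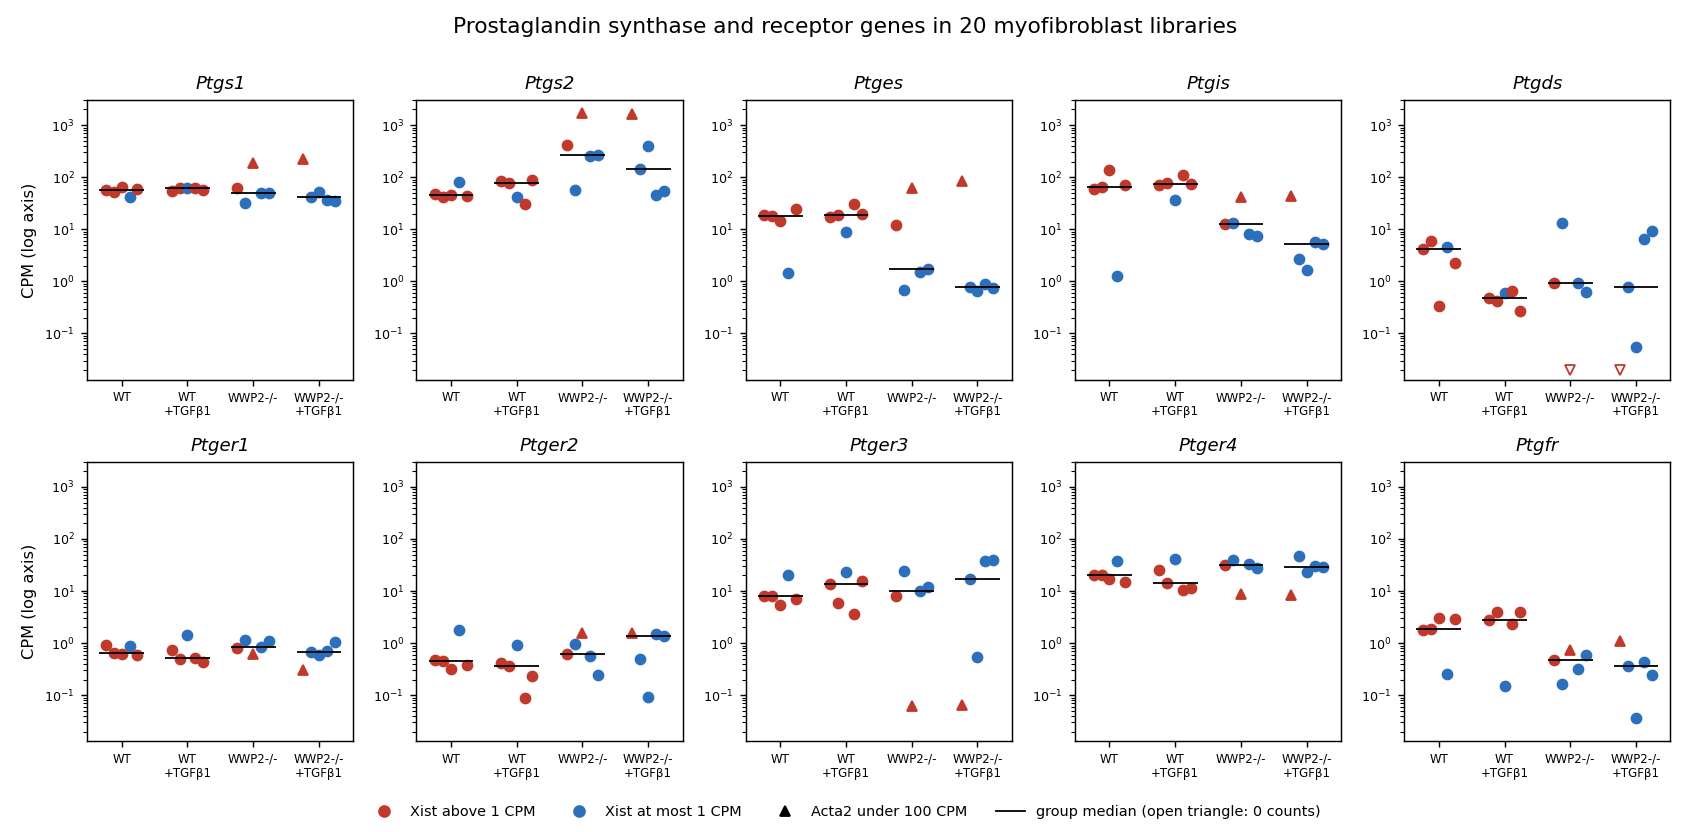
Each panel plots 1 gene in CPM on a log axis for the 20 libraries in their 4 groups, with group medians as lines, red for libraries with Xist, blue for those without, and triangles for the Acta2-low libraries (open triangles mark 0 counts). Ptgs2 reached 1714 and 1656 CPM in the 2 Acta2-low libraries and at most 88.6 CPM in WT, and the red and blue points of Ptges lay apart in both genotypes.

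With TGFβ1, 0 of the 10 genes differed between WWP2-/- and WT cells at an adjusted *P* of 0.05 (edgeR), beside 6.07% of all genes tested. For *Ptgs2*, *Ptgis* and *Ptgfr* the unadjusted P was below 0.05, as it was for 24.7% of all genes, and the Wald test of DESeq2 called these 3 genes, beside 13.1% of all genes. Without TGFβ1, edgeR called 0 of 10, beside 0.725% of all genes, again with *Ptgs2*, *Ptgis* and *Ptgfr* below an unadjusted *P* of 0.05, where 14.9% of all genes were, and the Wald test called *Ptgs2* alone, beside 3.64% of all genes. Leaving out both *Acta2*-low libraries, a choice made after seeing the data, turned the comparison with TGFβ1 into one with 3 called genes, *Ptges*, *Ptgis* and *Ptgfr*, all lower in WWP2-/- cells, beside 17.2% of all genes. With *Xist* as a covariate in all 20 libraries, *Ptgs2* and *Ptgis* passed, beside 3.82% of all genes. For no gene of the 10 did the libraries of the genotypes separate fully, beside 5.53% of all genes with TGFβ1 and 2.82% without. Over the 10 genes the median log2 fold change was 0.31 with TGFβ1 and 0.14 without, where all genes tested had medians of 0.05 and 0.08.

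**Figure D2:**
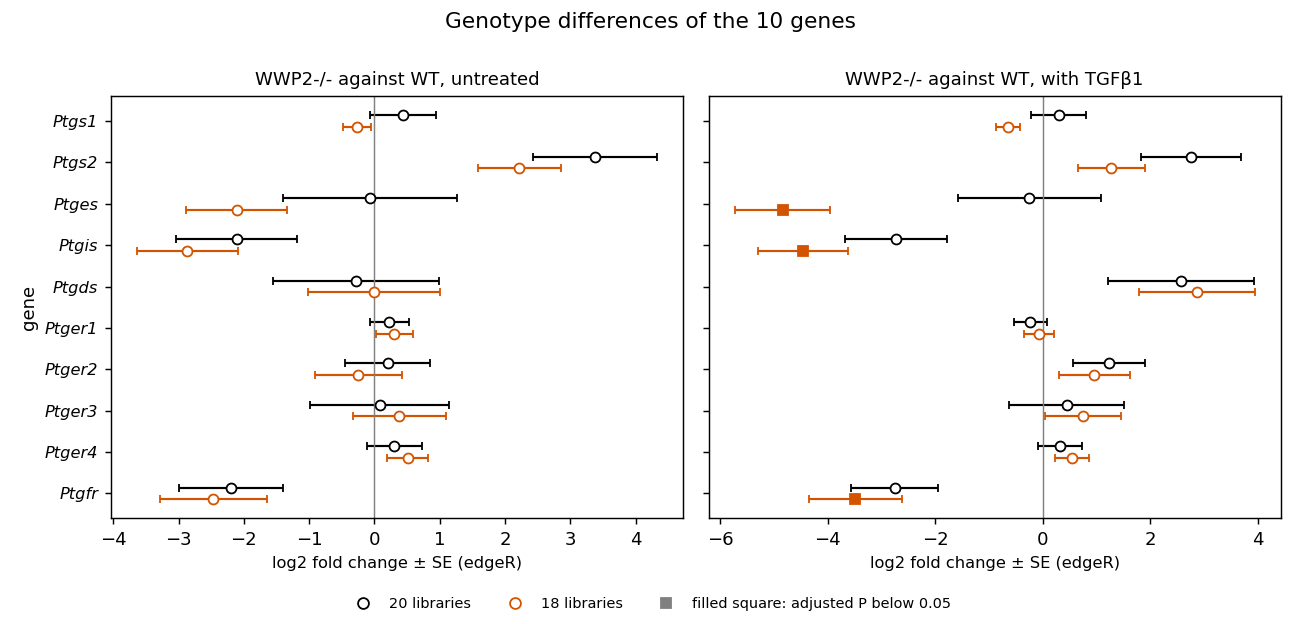
Log2 fold changes of WWP2-/- against WT with their SE (edgeR), untreated on the left and with TGFβ1 on the right, from all 20 libraries in black and from the 18 libraries without the Acta2-low ones in orange, where filled squares passed an adjusted P of 0.05. Ptges moved from −0.25 to −4.84 with TGFβ1 when the 2 libraries were left out, and Ptgs2 from 2.76 to 1.28.

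The promoters of 4 genes are shown because the genes they belong to had unlike patterns over the libraries: *Ptgs1*, which varied little among WT libraries, and the variable *Ptgs2*, and *Ptges* and *Ptger4*, which ran opposite to each other. Each line is the 250 bases before the RefSeq start on GRCm38.p6, 5′ to 3′ on the strand of the gene: chr2:36230176-36230425 on the + strand, chr1:150099781-150100030 on the + strand, chr2:30903298-30903547 on the − strand and chr15:5244188-5244437 on the − strand. Capitals mark matches on either strand to any of 8 motifs.
Ptgs1: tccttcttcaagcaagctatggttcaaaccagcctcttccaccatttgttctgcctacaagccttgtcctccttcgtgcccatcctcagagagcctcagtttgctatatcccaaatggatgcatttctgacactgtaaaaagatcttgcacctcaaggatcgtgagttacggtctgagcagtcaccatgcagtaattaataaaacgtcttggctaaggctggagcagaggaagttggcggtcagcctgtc
Ptgs2: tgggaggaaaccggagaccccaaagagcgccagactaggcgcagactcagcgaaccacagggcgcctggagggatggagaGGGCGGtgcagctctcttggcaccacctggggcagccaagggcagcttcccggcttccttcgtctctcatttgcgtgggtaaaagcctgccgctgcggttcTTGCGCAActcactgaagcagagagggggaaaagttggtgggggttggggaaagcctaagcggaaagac
Ptges: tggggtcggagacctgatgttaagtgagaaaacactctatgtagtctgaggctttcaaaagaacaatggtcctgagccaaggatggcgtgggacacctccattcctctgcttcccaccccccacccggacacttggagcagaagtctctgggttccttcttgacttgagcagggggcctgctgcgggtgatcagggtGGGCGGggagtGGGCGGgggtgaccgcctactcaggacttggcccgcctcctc
Ptger4: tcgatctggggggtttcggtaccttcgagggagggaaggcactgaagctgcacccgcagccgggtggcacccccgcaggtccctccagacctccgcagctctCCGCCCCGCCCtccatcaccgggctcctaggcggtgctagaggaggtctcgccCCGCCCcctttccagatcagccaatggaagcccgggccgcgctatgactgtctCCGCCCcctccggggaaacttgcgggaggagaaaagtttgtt
The motifs were the TATA box TATAAA, the Sp1 box GGGCGG, the cyclic AMP element core TGACG, the AP-1 site TGANTCA, the E-box CACGTG, the C/EBP site TTGCNNAA, the κB site (GGGA and CC with any 4 bases between them) and the SMAD box CAGACA. The Sp1 box was found in the windows of 5 of the 8 genes with an entry, *Ptgs2*, *Ptges*, *Ptger3*, *Ptger4* and *Ptgfr*, and in 32.7% of 32851 promoters. The *Ptgs2* window held 1 Sp1 box and the palindromic C/EBP match TTGCGCAA, which starts at position −69 from the start and was found in 9.56% of all promoters. It also covers 183 exon bases of the antisense gene *Ptgs2os*. The *Ptgds* window covers 93 exon bases of *Ptgds*, and all 250 bases of the *Ptgfr* window are exon bases of *Ptgfr* or *Gm43618*. The *Ptges* and *Ptgds* windows lie within the annotated spans of these genes, whose ends differ from the RefSeq starts. None of the 8 motifs matched before *Ptgs1* or *Ptger2*, whose windows had 48% and 38% GC, where the median promoter had 52.4%. *Ptger4* had 4 Sp1 boxes, 2 of them overlapping, and *Ptges* had 2. The *Ptger3* window held 3 Sp1 boxes and a κB match, and the only AP-1 match lay in the *Ptgds* window. κB, AP-1 and SMAD motifs occurred in 17.6%, 6.75% and 17.1% of all promoters, and no match to the TATA box (12.4% of all promoters), the cyclic AMP element core (17.8%), the E-box (6.02%) or the SMAD box was found in the 8 windows. A missing match says only that these letters are not in this window.

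*Ptgs1*, which encodes the largely constitutive cyclooxygenase-1, lies on chromosome 2 of GRCm38 from 36230426 to 36252272. In WT replicates 1 to 5 it was at 57.3, 51.7, 64.4, 41.5 and 59.0 CPM untreated and at 53.5, 62.1, 61.5, 63.1 and 57.6 CPM with TGFβ1. In WWP2-/- replicates it was at 63.1, 31.9, 190.2, 50.5 and 50.1 CPM untreated and at 221, 42.5, 51.6, 37.0 and 35.4 CPM with TGFβ1. The WT libraries lay close together, the *Acta2*-low libraries stood far above every other library, and of the remaining 8 WWP2-/- libraries all but replicate 1 untreated lay below at least 9 of the 10 WT libraries. The log2 fold change was 0.29 (SE 0.51, adjusted *P* = 0.775, edgeR) with TGFβ1 and 0.44 (SE 0.51, adjusted *P* = 0.713) without. Without the *Acta2*-low libraries it changed sign, to −0.64 (SE 0.22, adjusted *P* = 0.0509) with TGFβ1 and −0.26 (adjusted *P* = 0.564) untreated.

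*Ptgs2* encodes cyclooxygenase-2, the inducible enzyme, and lies on chromosome 1 from 150100031 to 150108227. Untreated WT replicates 1 to 5 had 48.1, 41.4, 45.3, 79.6 and 43.7 CPM, and TGFβ1-treated WT replicates had 86.1, 77.2, 41.3, 31.2 and 88.6 CPM. Among untreated WWP2-/- replicates the values were 424, 55.8, 1714, 255 and 265 CPM, and among TGFβ1-treated ones 1656, 142, 405, 45.6 and 53.5 CPM. Most WWP2-/- libraries lay above the whole WT range, but replicate 2 untreated and replicates 4 and 5 with TGFβ1 lay within it, so the groups overlapped. The untreated log2 fold change was 3.37 (SE 0.95, adjusted *P* = 0.107, edgeR), and with TGFβ1 it was 2.76 (SE 0.93, adjusted *P* = 0.0779). The Wald test gave adjusted *P* values of 0.00425 and 0.0112. Without the *Acta2*-low libraries the fold changes were 2.22 (adjusted *P* = 0.0792) and 1.28 (adjusted *P* = 0.161). Among libraries with *Xist*, the 3 WWP2-/- values were between 424 and 1714 CPM and the 8 WT values between 31.2 and 88.6 CPM. Among libraries without *Xist*, the 7 WWP2-/- values were between 45.6 and 405 CPM and of the WT values 79.6 CPM lay within that range and 41.3 CPM below it. With *Xist* in the model the fold change with TGFβ1 was 3.10 (adjusted *P* = 0.0371), and the untreated one 3.19 (adjusted *P* = 0.0618).

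The balance between the cyclooxygenases followed from these levels. On the FPKM scale, *Ptgs2* made up 44.0% ± 10.2 of the summed *Ptgs1* and *Ptgs2* level in untreated WT libraries and 46.3% ± 12.7 with TGFβ1 (SD, n = 5). In WWP2-/- libraries it made up 79.2% ± 11.3 untreated and 70.9% ± 16.7 with TGFβ1. The lowest untreated WWP2-/- share, 59.7% in replicate 2, was below the highest WT share, 61.9% in replicate 4, and no test was made on these shares. In the *Acta2*-low libraries both genes were high, and their shares of 88.4% and 86.4% were close to those of WWP2-/- replicate 1 untreated and replicate 3 with TGFβ1, at 85.1% and 86.9%.

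**Figure D3:**
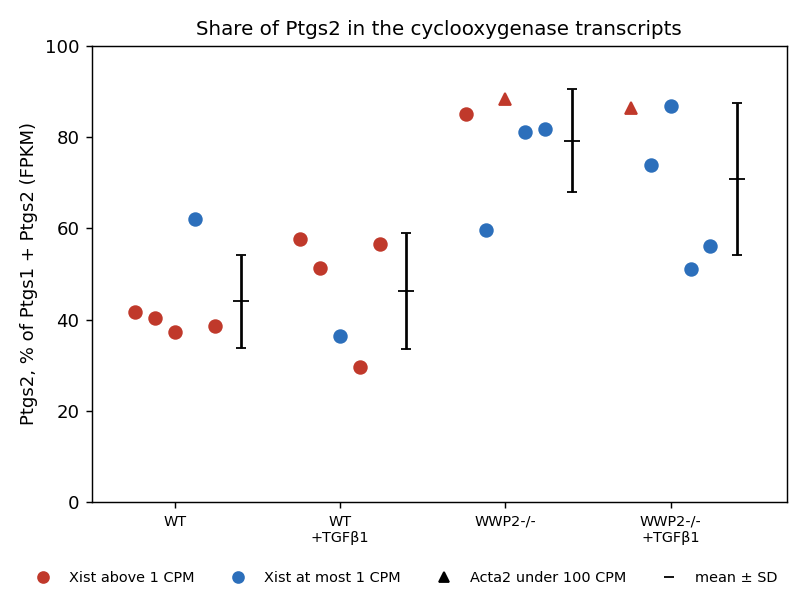
Ptgs2 as a percentage of summed Ptgs1 and Ptgs2 FPKM in each library, by group, with mean and SD beside the points and colors and triangles for Xist and Acta2 as in the panels of levels. Untreated WWP2-/- libraries lay between 59.7% and 88.4% and untreated WT libraries between 37.4% and 61.9%.

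*Ptges* encodes microsomal prostaglandin E synthase-1, the inducible enzyme that commonly works with cyclooxygenase-2, and lies on chromosome 2 from 30889471 to 30929863. Its level was 19.2, 18.3, 14.3, 1.48 and 24.6 CPM in untreated WT replicates 1 to 5 and 17.0, 19.1, 9.01, 31.1 and 19.7 CPM with TGFβ1. WWP2-/- replicates had 11.9, 0.680, 61.7, 1.54 and 1.76 CPM untreated and 82.8, 0.776, 0.641, 0.886 and 0.732 CPM with TGFβ1. The *Acta2*-low libraries were the highest of all, and most other WWP2-/- libraries were far below nearly every WT library. Over all 20 libraries the fold changes were small beside their errors, at −0.07 (SE 1.34, adjusted *P* = 0.985, edgeR) untreated and −0.25 (SE 1.34, adjusted *P* = 0.937) with TGFβ1. Without the *Acta2*-low libraries, *Ptges* was lower in WWP2-/- cells with TGFβ1 by a log2 fold change of −4.84 (SE 0.89, adjusted *P* = 0.00761), and the untreated value was −2.11 (SE 0.77, adjusted *P* = 0.155).

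*Ptges* followed *Xist* closely. The 8 WT libraries with *Xist* had 14.3 to 31.1 CPM and the 3 WWP2-/- libraries with *Xist* had 11.9 to 82.8 CPM. WT replicate 4 untreated and WT replicate 3 with TGFβ1, which lack *Xist*, had 1.48 and 9.01 CPM, and the 7 WWP2-/- libraries without *Xist* had 0.641 to 1.76 CPM. With *Xist* as a covariate the untreated log2 fold change was 0.51 (adjusted *P* = 0.657), opposite in sign to the value without it, and that with TGFβ1 was −0.90 (adjusted *P* = 0.411). Genotype and *Xist* were unevenly combined, and WT libraries without *Xist* numbered only 2, so the part of each in the level of *Ptges* was not tested beyond these values.

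**Figure D4:**
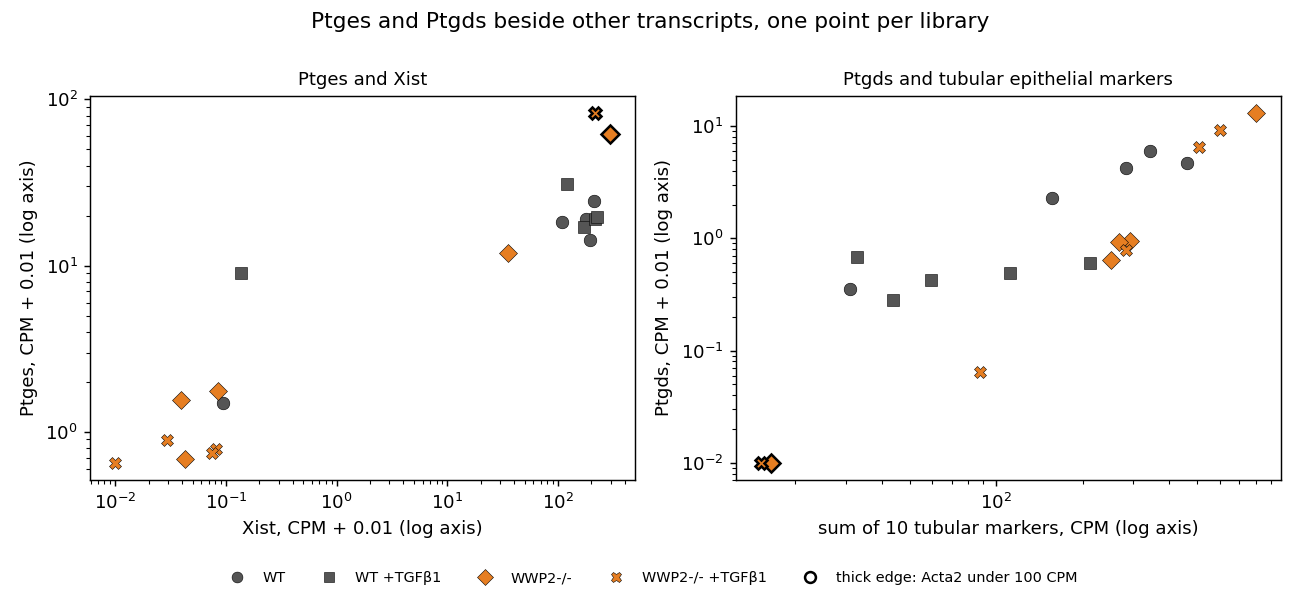
Left, Ptges against Xist, and right, Ptgds against the summed CPM of 10 tubular epithelial markers, both in CPM on log axes with 1 point per library, gray for WT and orange for WWP2-/-, with thick edges on the Acta2-low libraries and 0.01 added to the values of Xist, Ptges and Ptgds so that 0 can be drawn. All libraries with Xist had at least 11.9 CPM of Ptges, and Ptgds reached 13.03 CPM in the library with the most tubular marker transcripts.

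*Ptgis* encodes prostacyclin synthase and lies on chromosome 2 from 167191805 to 167240604. Untreated WT replicates 1 to 5 held 58.8, 65.3, 139, 1.25 and 71.9 CPM, and WT replicates with TGFβ1 held 71.8, 77.1, 36.0, 109.8 and 72.5 CPM. In untreated WWP2-/- replicates the level was 12.9, 13.2, 42.3, 8.16 and 7.34 CPM, and with TGFβ1 it was 44.5, 2.70, 1.65, 5.82 and 5.27 CPM. All WWP2-/- libraries but the *Acta2*-low ones stayed at or below 13.2 CPM, and among WT libraries the 2 without *Xist* were the lowest, with WT replicate 4 below every WWP2-/- library. The log2 fold change was −2.73 (SE 0.95, adjusted *P* = 0.0899, edgeR) with TGFβ1 and −2.11 (SE 0.93, adjusted *P* = 0.305) without, and the Wald test gave an adjusted *P* of 0.0161 with TGFβ1. Without the *Acta2*-low libraries, *Ptgis* was lower with TGFβ1 by −4.47 (SE 0.84, adjusted *P* = 0.00820), and the untreated value was −2.86 (adjusted *P* = 0.0693). With *Xist* as a covariate it was lower with TGFβ1 by −2.11 (adjusted *P* = 0.0497), and the untreated value was −0.65 (adjusted *P* = 0.572).

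*Ptgds* encodes the lipocalin-type prostaglandin D synthase and lies on chromosome 2 from 25466709 to 25470046. WT replicates 1 to 5 had 4.22, 6.01, 0.342, 4.66 and 2.26 CPM untreated and 0.480, 0.414, 0.589, 0.667 and 0.271 CPM with TGFβ1. WWP2-/- replicates had 0.944, 13.03, 0, 0.910 and 0.636 CPM untreated, and 0, 0.776, 0.0549, 6.55 and 9.23 CPM with TGFβ1, where the zeros are the *Acta2*-low libraries. In WT the treated values lay below 4 of the 5 untreated ones, and in WWP2-/- cells both groups ran from 0 to high values. The log2 fold change of TGFβ1 in WT cells was −2.72 (SE 1.37, adjusted *P* = 0.767, edgeR), and the genotype difference with TGFβ1 was 2.57 (SE 1.36, adjusted *P* = 0.253). The libraries high in *Ptgds* were also those rich in transcripts of cells other than fibroblasts. Untreated, all 10 tubular epithelial markers together made up 799 CPM and all 10 macrophage markers 2087 CPM in WWP2-/- replicate 2, the library highest in *Ptgds*, against 16.5 and 95.4 CPM in the *Acta2*-low replicate 3. Over the 20 libraries, log2(CPM + 2) of *Ptgds* correlated with the tubular sum at Pearson r = 0.78 and Spearman ρ = 0.92 and with the macrophage sum at r = 0.84 and ρ = 0.92. After removal of the 2 libraries farthest from the median sum, r was 0.77 and 0.82. With TGFβ1, all 10 macrophage and all 8 tested tubular markers had log2 fold changes above 0, with medians of 2.51 and 2.09, and none was called. The part of these other cells in the *Ptgds* level was not tested.

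Among the receptors of prostaglandin E2, *Ptger4* and *Ptger3* were the abundant members. *Ptger4* encodes EP4, which raises cyclic AMP, and lies on chromosome 15 from 5206661 to 5244187. Untreated WT replicates 1 to 5 were at 20.4, 20.8, 17.0, 37.1 and 14.9 CPM and treated ones at 25.9, 14.2, 41.4, 10.3 and 11.5 CPM. WWP2-/- replicates were at 31.9, 38.6, 8.88, 33.4 and 28.0 CPM untreated and at 8.26, 47.4, 23.0, 30.9 and 28.7 CPM with TGFβ1. The groups overlapped widely, the 2 WT libraries without *Xist* reached the upper WWP2-/- values, and the *Acta2*-low libraries were the lowest of all. The log2 fold change was 0.32 (SE 0.42, adjusted *P* = 0.687, edgeR) with TGFβ1 and 0.30 (SE 0.42, adjusted *P* = 0.755) without, and with *Xist* as a covariate it turned to −0.49 (adjusted *P* = 0.334) and −0.31 (adjusted *P* = 0.530). Its level ran opposite to that of *Ptges* over the 20 libraries (r = −0.83, ρ = −0.82), and at r = −0.74 without the *Acta2*-low libraries. Over the 20 libraries *Xist* went with *Ptges* at r = 0.92 and with *Ptger4* at r = −0.81. *Ptger4* also went with the tubular sum at r = 0.85, and the part of either in the opposite course was not tested. Of the *Ptger4* exon bases, 16.5% are shared with *Ttc33* and *Gm15937*.

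*Ptger3* encodes EP3, which mostly lowers cyclic AMP, and lies on chromosome 3 from 157566892 to 157645888. In WT replicates 1 to 5 it was at 8.19, 7.93, 5.44, 20.7 and 7.11 CPM untreated and at 13.6, 5.90, 23.6, 3.695 and 15.3 CPM with TGFβ1. WWP2-/- values were 8.03, 24.1, 0.0617, 9.997 and 12.1 CPM untreated and 0.0654, 17.1, 0.531, 38.2 and 39.0 CPM with TGFβ1. The *Acta2*-low libraries held 3 and 4 counts, at or just above the limit of detection, and WWP2-/- replicates 4 and 5 with TGFβ1 were the highest of all libraries. The spread within WWP2-/- cells exceeded any difference between groups, with log2 fold changes of 0.44 (SE 1.07, adjusted *P* = 0.845, edgeR) with TGFβ1 and 0.08 (SE 1.07, adjusted *P* = 0.978) without, and 0.79 (SE 1.07) for TGFβ1 in WWP2-/- cells. The level followed the sum of 8 endothelial markers (r = 0.89, ρ = 0.81, 20 libraries), which ran from 9.52 to 199.96 CPM. It also went with the tubular sum (r = 0.79, ρ = 0.77) and the macrophage sum (r = 0.67, ρ = 0.63). The part of any of these cell types was not tested.

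*Ptger1* and *Ptger2*, which encode EP1, a receptor that raises cell calcium, and EP2, which raises cyclic AMP, were scarce. *Ptger1* lies on chromosome 8 from 83666678 to 83672753 and was between 0.311 and 1.45 CPM in all libraries. The strand setting of the counting was not given in the sources used here, and its counts are uncertain. Its log2 fold changes were −0.23 (SE 0.30) with TGFβ1 and 0.23 (SE 0.30) without (adjusted *P* = 0.684 and 0.749, edgeR). *Ptger2* lies on chromosome 14 from 44988195 to 45003820 and was between 0.0901 and 1.76 CPM, with its highest values in WT replicate 4 and the *Acta2*-low libraries. Its mean was 1.02 ± 0.678 CPM (SD, n = 5) with TGFβ1 in the WWP2-/- group and 0.402 ± 0.308 CPM in the WT group, a log2 fold change of 1.23 (SE 0.67, adjusted *P* = 0.263), and the untreated value was 0.20 (adjusted *P* = 0.904).

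*Ptgfr*, the receptor of prostaglandin F2α, lies on chromosome 3 from 151796502 to 151837630. WT replicates 1 to 5 had 1.81, 1.86, 3.06, 0.254 and 2.96 CPM untreated and 2.82, 3.89, 0.147, 2.38 and 3.93 CPM with TGFβ1. WWP2-/- replicates had 0.479, 0.162, 0.740, 0.323 and 0.590 CPM untreated and 1.08, 0.371, 0.0366, 0.443 and 0.244 CPM with TGFβ1. The 8 WT libraries with *Xist* all lay above every WWP2-/- library, whereas the 2 WT libraries without *Xist*, at 0.254 and 0.147 CPM, lay among the 7 WWP2-/- libraries without it, at 0.0366 to 0.590 CPM. With TGFβ1 the log2 fold change was −2.76 (SE 0.81, adjusted *P* = 0.0515, edgeR), just short of the threshold, and the Wald test gave an adjusted *P* of 0.00472. Untreated it was −2.20 (SE 0.80, adjusted *P* = 0.217). Without the *Acta2*-low libraries *Ptgfr* was lower with TGFβ1 by −3.49 (SE 0.87, adjusted *P* = 0.0164). Including *Xist* as a covariate in all 20 libraries left −1.19 (adjusted *P* = 0.303) with TGFβ1 and −0.72 (adjusted *P* = 0.529) untreated. *Ptgis* and *Ptgfr* varied together over the 20 libraries (r = 0.84, ρ = 0.86), and *Ptgfr* also followed the summed fibroblast markers (r = 0.88, ρ = 0.72). With TGFβ1, 1 of 10 fibroblast markers had a log2 fold change above 0, and their median was −2.12. The part of fibroblast number in the level of *Ptgfr* was not tested.

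TGFβ1 itself moved none of the 10 genes past the threshold. In WT cells edgeR called 0 of 10, beside 0% of all genes, and in WWP2-/- cells 0 of 10, beside 0%. None of the 10 had an unadjusted P below 0.05 in either comparison, where 6.85% of all genes did in WT and 3.49% in WWP2-/- cells. The interaction of genotype and TGFβ1 was called for 0 of 10, also with none below 0.05, beside 0% of all genes, although 1424 of 20407 genes had an unadjusted P below 0.05. The Wald test called none of the 10 in any of these 3 comparisons. Over all 20407 genes it called 27 in WT cells, 49 in WWP2-/- cells and 10 for the interaction. Full separation of treated and untreated libraries was seen for none of the 10, beside 1.19% of all genes in WT and 0.421% in WWP2-/- cells. In WT cells the changes of *Ptgs2*, *Ptgs1*, *Ptges* and *Ptgis* were 0.46 (SE 0.87), 0.21 (SE 0.51), 0.41 (SE 1.34) and 0.20 (SE 0.89). The widest interaction was that of *Ptgds*, at 2.85 (SE 1.84, adjusted *P* = 0.834).

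The rest of the pathway was read from lists of named genes. Of 16 other genes of prostanoid synthesis, including the phospholipase *Pla2g4a* and thromboxane synthase *Tbxas1*, and of 9 genes of prostanoid transport and breakdown, none passed the threshold in any comparison (edgeR), with medians in the comparison with TGFβ1 of 0.11 and 0.24 on the log2 scale. *Pla2g4a*, which frees arachidonic acid from membranes, was at 171 ± 64.4 CPM (SD, n = 5) in the WT group and 130.4 ± 123 CPM in the WWP2-/- group with TGFβ1, and the latter held 346 CPM in the *Acta2*-low library. *Hpgd*, which inactivates prostaglandins, was at 1.47 ± 1.38 and 5.36 ± 4.50 CPM. Both genes are examples picked from their lists, and neither was called. Of 6 tested genes among other prostanoid receptors and their partners, 1 was lower in both genotype comparisons.

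That gene was *Tbxa2r*, the thromboxane A2 receptor. It was at 38.7, 40.0, 42.0, 1.05 and 48.4 CPM in untreated WT replicates 1 to 5 and at 28.1, 41.3, 10.2, 69.9 and 36.7 CPM with TGFβ1. WWP2-/- replicates had 2.18, 1.10, 1.71, 3.63 and 2.94 CPM untreated and 1.83, 0.724, 2.32, 0.655 and 0.960 CPM with TGFβ1. All WWP2-/- libraries, the *Acta2*-low ones included, were low. With TGFβ1 every one lay below every WT library, where 5.53% of all genes tested separated fully in either direction. *Tbxa2r* fell by 4.96 on the log2 scale (SE 0.80, adjusted *P* = 0.00605, edgeR) with TGFβ1 and by 3.96 (SE 0.76, adjusted *P* = 0.0258) without. WT replicate 4 untreated, without *Xist*, was as low as the WWP2-/- libraries. WT replicate 3 with TGFβ1, also without *Xist*, was the lowest WT library of its group. The difference was, with *Xist* as a covariate, −4.03 (adjusted *P* = 0.0243) with TGFβ1 and −2.95 (adjusted *P* = 0.109) without. *Ptgir*, the prostacyclin receptor, named after its values were seen, had the pattern of *Ptges* instead: 27.4 and 29.8 CPM in the *Acta2*-low libraries, 0.421 to 5.09 CPM in the other 8 WWP2-/- libraries, and 10.6 ± 5.69 CPM in untreated WT libraries (SD, n = 5), with no call in either comparison.

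Genes that respond to cyclic AMP, the messenger of EP2 and EP4, were also examined. Their list was chosen with earlier results of these data known, so the counts are descriptions only. Of 14, 3 were higher in WWP2-/- cells with TGFβ1 and none was lower, where 429 of all 20407 genes tested were higher and 809 lower, and untreated none passed (edgeR). *Nr4a2*, an orphan nuclear receptor, was at 17.6, 10.99, 8.73, 8.90 and 10.3 CPM in WWP2-/- replicates and at 4.57, 4.86, 5.13, 3.44 and 3.95 CPM in WT replicates with TGFβ1, a rise of 1.25 on the log2 scale (SE 0.22, adjusted *P* = 0.00783). *Crem*, a modulator of cyclic AMP response elements, rose by 1.09 (SE 0.22, adjusted *P* = 0.0123), from 11.8 ± 3.45 to 27.5 ± 7.94 CPM (SD, n = 5). *Areg*, which encodes the growth factor amphiregulin, rose by 3.05 (SE 0.71, adjusted *P* = 0.0187), from 0.163 ± 0.175 to 1.402 ± 0.749 CPM. The median of the 14 genes was 0.34, where all genes had 0.05.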

How the data were processed

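The deposited values are counts: the authors made poly-A libraries, mapped read pairs by STAR (GRCm38), and deposited exon-level featureCounts totals per gene of Ensembl release 89, with no normalization. From these, CPM and FPKM were computed, with names and exon lengths from GENCODE M21 on GRCm38 and promoters from RefSeq (8 of the 10 genes matched). Names matched 51633 of 51826 genes, and 16652 genes had no count. No other per-sample columns were present and no pair of libraries was identical. Groups came from the sample labels.

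Genes with 5 counts in 5 or more libraries (20407) were fitted by edgeR 4.0.16 in R 4.3.3 (TMM, glmQLFit, glmQLFTest, 4 groups, 20 libraries, no block), with Benjamini–Hochberg adjustment over all of them and a threshold of 0.05. SE is the absolute log2 fold change divided by the square root of F. Alternatives were the Wald test of DESeq2 1.42.0, other size factors, other filters, a threshold of 0.01, a fit of the compared groups only, a replicate block, log2(CPM + 2) of *Xist* as a covariate, and each library left out, and, after seeing the data, both *Acta2*-low libraries left out.

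The 10 genes and all 13 gene lists were chosen with earlier results of these data known. Named genes are the 10, *Wwp2*, *Xist* and *Acta2*, and the list genes past the threshold. *Pla2g4a*, *Tbxas1*, *Hpgd* and *Ptgir*, which passed it in no comparison, and the markers *Umod* and *Aqp2* were named outside this rule. The rule also names genes most alike to each called gene; it named none, and those given were added after seeing the data. Counts were simulated for the untreated genotype comparison, with a log2 change of 2 given to 200 of 20010 genes. Of these, edgeR found 122 (61%), and it made 6 false calls. Apart from that change, each gene had the same mean in every library. The simulation held no *Acta2*-low libraries, uneven *Xist* or differing cell composition, so its rates may not hold for these data. Single-cell and other measurements of the study were not used here, and results for some items are not reported here.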

Additional observations from a re-analysis of the deposited data

Results flagged for a closer look

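Within groups of 5 libraries, 13 of 40 gene and group combinations had a highest value far from the rest by the Dixon criterion. A group of independent values meets this criterion by chance in about 1 of 20 cases. All 13 lay in 4 libraries, so the 40 are not independent, and no excess over chance can be read from the count. Both *Acta2*-low libraries stood out. In WWP2-/- replicate 3 untreated, *Ptgs1* (190.2 CPM), *Ptgs2* (1714 CPM), *Ptges* (61.7 CPM) and *Ptgis* (42.3 CPM) were apart from the other 4 libraries. In WWP2-/- replicate 1 with TGFβ1 the same 4 genes were apart, at 221, 1656, 82.8 and 44.5 CPM. WT replicate 4 untreated, which lacks *Xist* and has the highest macrophage marker sum of all libraries (4458 CPM), stood apart for *Ptgs2* (79.6 CPM), *Ptger2* (1.76 CPM), *Ptger3* (20.7 CPM) and *Ptger4* (37.1 CPM). WWP2-/- replicate 2 untreated, with the highest tubular marker sum (799 CPM), stood apart for *Ptgds* (13.03 CPM). What set these libraries apart was not tested.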

How the results depend on the processing

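Under most alternatives 0 of the 10 genes were called, and the exceptions were the Wald test (3 with TGFβ1, 1 untreated), *Xist* as a covariate (2 with TGFβ1) and the 18 libraries without the *Acta2*-low ones (3 with TGFβ1). With 1 library left out, between 0 and 3 genes were called with TGFβ1: *Ptgis* and *Ptgfr* without WT replicate 4, *Ptgfr* without WT replicate 3 with TGFβ1, *Ptgs2* and *Ptgfr* without WWP2-/- replicate 3, and *Ptges*, *Ptgis* and *Ptgfr* without WWP2-/- replicate 1 with TGFβ1. Calls over all genes also rose in these fits. In the order given they were 1854 of 20262, 2730 of 20304, 1668 of 20295 and 2100 of 20296, beside 1238 of 20407 with every library kept. In the other 4 comparisons the count of the 10 genes called stayed at 0.

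Signs changed for genes that were not called over all 20 libraries, and *Ptgds* with TGFβ1 was the widest of these differences, at 2.57 (SE 1.36). Without the *Acta2*-low libraries, *Ptgs1* was at −0.64 with TGFβ1 and −0.26 untreated, and *Ptger2* at −0.25 untreated. With *Xist* as a covariate, *Ptgds* (−0.38), *Ptger3* (−1.94) and *Ptger4* (−0.49) changed sign with TGFβ1, and *Ptges* (0.51), *Ptger1* (−0.16), *Ptger3* (−1.65) and *Ptger4* (−0.31) untreated. Leaving out 1 library moved the untreated values of *Ptgds* from −2.52 to 0.00854, *Ptger2* from −0.24 to 0.82, *Ptger3* from −0.41 to 0.45, *Ptges* from −2.10 to 0.18 and *Ptgs1* from −0.26 to 0.59. With TGFβ1 it moved *Ptger1* from −0.43 to 0.0710, *Ptger3* from −0.00597 to 0.74, *Ptges* from −4.86 to 0.0531 and *Ptgs1* from −0.66 to 0.48, and, with no change of sign, *Ptgs2* from 1.25 to 3.06. The cause was not tested. *Tbxa2r* kept its direction throughout and its call with TGFβ1, whereas its untreated call was lost in 4 alternatives and without each of 9 libraries. *Nr4a2* kept its call in all alternatives.

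The labels give every group the replicate numbers 1 to 5. Deviations of same-numbered treated and untreated libraries from their group means correlated at −0.53 to 0.53, above 0.1 in 5 of 10 pairs. Only 1 of 10 libraries correlated best with its own number, so the numbers were not taken to pair the samples. Across numbers, the *Acta2*-low libraries correlated with each other at 0.95. WWP2-/- replicate 2 untreated and replicate 5 with TGFβ1 reached 0.89, and WT replicate 4 untreated and replicate 3 with TGFβ1 reached 0.76. Whether such libraries share a culture was not tested. With the replicate number as a block, 0 of the 10 genes were called in any comparison, *Ptgs1* (−0.0798) and *Ptger3* (−0.53) changed sign with TGFβ1 and *Ptger3* (−0.14) untreated, and 670 of all genes were called with TGFβ1 in place of 1238, and 1 in place of 148 untreated.

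With at least 10 counts in every library only 6 of the 10 genes were tested. *Ptgds*, *Ptger3* and *Ptgfr* reached 0 to 4 counts in single libraries, where depth limits what can be said. Over all genes, calls with TGFβ1 went from 1238 to 2672 with the Wald test and 3480 without the *Acta2*-low libraries, and untreated from 148 to 743 and 271. With TGFβ1, calls split into 429 higher and 809 lower, and into 416 and 363 with *Xist* as a covariate, and untreated into 21 and 127 and, with *Xist*, 66 and 22.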

Other observations

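Inflammatory genes that are commonly induced with *Ptgs2* were counted in the same way. This list, too, was chosen with earlier results known, and its counts are descriptions only. Of 16, 1 was higher in WWP2-/- cells with TGFβ1 and none untreated (edgeR), beside 6.07% and 0.725% of all genes called in either direction. With TGFβ1, 11 of 16 log2 fold changes were above 0, with a median of 1.05 where all genes had 0.05, and untreated 15 of 16, with a median of 2.09 where all genes had 0.08. The called gene was *Il11*, a cytokine of the interleukin-6 family with a known part in fibroblast activation. It was at 43.7, 106, 371, 14.6 and 18.6 CPM in WWP2-/- replicates 1 to 5 with TGFβ1 and at 6.45, 3.005, 14.2, 2.96 and 2.98 CPM in WT replicates, a rise of 4.27 on the log2 scale (SE 0.92, adjusted *P* = 0.0141). Among TGFβ1 response genes, the matrix genes *Postn* and *Col1a1* fell by 2.44 (adjusted *P* = 0.0407) and 1.98 (adjusted *P* = 0.0492) in the same comparison, and neither was called untreated. None of 9 tested genes of the lipoxygenase branch was called. With *Xist* as a covariate *Il11* kept its call (adjusted *P* = 0.0354), and *Postn* and *Col1a1* lost theirs. *Col1a1* also lost its call without each of 16 single libraries and *Postn* without 11. Among marker lists, *Col1a2* of fibroblasts fell by 2.63, *Itga8* of mesangial cells by 1.76, and the endothelial genes *Kdr* and *Tek* by 1.76 and 2.87 with TGFβ1. Over these last lists, however, 6 of 8 endothelial markers and 5 of 7 tested pericyte and mesangial markers had log2 fold changes above 0, with medians of 0.60 and 0.26. *Tek* also fell untreated, by 3.32, and no macrophage, tubular or mast cell marker was called. The calls of *Col1a2*, *Itga8*, *Kdr* and *Tek* were lost with *Xist* as a covariate.

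Genes most like those of the 10 over the 20 libraries were sought among 13534 genes by Pearson correlation of log2(CPM + 2). *Ptger1* and *Ptger2*, with means below 1 CPM, were left out of this search, and not all of the others are given here. *Ptgs2* was nearest to *Gfod1* (r = 0.96), *Lipg* (r = 0.95) and *Csrnp1* (r = 0.95), and *Ptgis* to *Eng*, *Snx33* and *Serping1* (r = 0.96, 0.96 and 0.95). *Ptgds* was nearest to the claudin genes *Cldn3* and *Cldn19* (r = 0.97 each), which encode tight junction proteins of epithelia, and to *Smagp* (r = 0.96). *Ptger3* was nearest to *Pxylp1*, *Lactb* and the claudin gene *Cldn2* (r = 0.94, 0.93 and 0.92), and *Ptger4* to *Oxr1*, *Rassf3* and *Syt12* (r = 0.97, 0.97 and 0.96). These libraries share their group and their marker composition, and the values are descriptions only.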
